A study of Sus scrofa with 6 samples.

Results

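The miR-379 to miR-410 cluster was represented by 61 of the 742 experimental probes on a miRNA array of developing miniature pig teeth. Probes were taken as members when the miRNA number in their name belongs to the cluster. This rule uses no measured values, although it was chosen with earlier results of these data known. They stand for 33 miRNA names, 20 of them with a probe for each arm of the hairpin. Of the 61, 6 carry names of mature pig miRNAs (ssc-miR), and 55 carry names starting with PN, a prefix that the files do not explain. The 12 RNAs came from deciduous incisor, canine, premolar and molar tooth germs dissected from miniature pig embryos at embryonic days 40, 50 and 60, with 1 RNA for each of the 12 conditions and no treatment or genetic change given in the labels for any group. They were hybridised in pairs on 6 arrays, so a tooth type is described by 3 RNAs of different ages and a day by 4 RNAs of different tooth types. The labels do not say whether a germ RNA came from 1 embryo or several.

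The cluster lies in the imprinted DLK1-DIO3 domain, where in mammals studied so far the miRNAs are expressed from the maternally inherited chromosome, downstream of the non-coding RNA MEG3, and are cut from long host transcripts. Each hairpin can give a mature miRNA from either arm (5p or 3p), and bases 2 to 8 of a mature miRNA, the seed, largely decide which messages it pairs with. In mouse and rat the cluster is best known from neurons, where several members act on dendrites and synapses, and from developing muscle, where the transcription factor MEF2 drives it; a mutation in the domain causes the muscular callipyge sheep.

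The sequences below are those the results turn on, as deposited for the array, with the seed in capitals. The first pair shares its seed and 20 consecutive bases, and was higher in the premolar on all 3 arrays that hold one.
PN-381-3p-1991: uAUACAAGgacaagcucucugu
PN-300-3p-13997: uAUACAAGgacaagcucucu
The next sequences belong to the probes that passed the test and to their relatives. PN-485-3p-375 and PN-539-3p-9544 have the same seed (UCAUACA) and otherwise different sequences, whereas ssc-miR-299 and PN-299-5p-13746 share 20 bases but start at different positions, so their seeds differ.
PN-485-3p-375: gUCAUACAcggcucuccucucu
PN-539-3p-9544: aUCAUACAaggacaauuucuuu
PN-299-5p-13746: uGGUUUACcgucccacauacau
ssc-miR-299: aUGGUUUAccgucccacauac
The next sequences, of 4 probes of the miR-376 group, are shown because these probes peaked in the same RNA. Of them, 3 probes have the seed UCAUAGA, and the probe for miR-376c-3p has another.
PN-376c-3p-2496: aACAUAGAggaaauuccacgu
PN-376b-3p-13138: aUCAUAGAggaaaauccaugu
ssc-miR-376a: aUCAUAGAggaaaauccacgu
PN-376d-3p-9586: aUCAUAGAggaaaauccacau
The last sequences had 2-fold or larger differences on at least 1 array, and none of their seeds recurs among the members.
PN-377-3p-18696: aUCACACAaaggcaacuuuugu
PN-411-5p-771: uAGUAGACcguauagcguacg
PN-494-3p-3917: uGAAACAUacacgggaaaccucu

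Of the 61 members, 59 were detected in at least 3 RNAs and were tested among 656 probes, 12 were detected in all 12 RNAs, and PN-541-3p-44064 and ssc-miR-369 were detected in 2 RNAs each and not tested. A probe was called detected when its signal exceeded the surface fitted through blank spots by 3 SD of those spots. The number of members detected was lowest, at 17, in the canine of day 60 and the incisor of day 50 and highest, at 61, in the premolar of day 50, and on every array the first density column detected more members than the second. Many members were dim: 28 were detected in only 3 to 6 RNAs, and 27 of the 61 varied by less than 0.5 on the log2 scale over the 12 RNAs, while 10 varied by more than 2. Levels below are normalised log2 intensities, and levels of different probes cannot be set against each other. Since the germs are mixtures of cells, fewer cells of a type and less RNA per cell cannot be told apart. Lists of epithelial and mesenchymal miRNAs, the tissues that make up a tooth germ, had mean levels of 7.92 to 8.63 and 8.95 to 9.76 across the 12 RNAs.

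The mean level of the cluster probes was highest in premolar germs. The mean level of the 59 tested members was 7.16, 6.997 and 7.03 in the premolars of days 40, 50 and 60. It lay between 6.70 and 6.90 in the incisors, between 6.71 and 6.83 in the canines and between 6.69 and 6.83 in the molars. The premolars lay above the other 9 RNAs, with no overlap. This separation rested on the probes PN-381-3p-1991 and PN-300-3p-13997: without them, an alternative chosen after seeing the data, the mean was 6.83 to 7.02 in premolars, 6.64 to 6.85 in incisors, 6.60 to 6.77 in canines and 6.55 to 6.82 in molars, and the day-50 incisor lay above the day-50 premolar. The mean of all 656 tested probes stayed between 7.44 and 7.53 in every RNA.

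The premolars also had the highest mean levels in the lists of other DLK1-DIO3 miRNAs and of skeletal muscle miRNAs. The neural and mesenchymal lists, given further below, did not show this order. Other miRNAs of the DLK1-DIO3 domain that lie outside the cluster (10 tested probes, among them miR-127, miR-370, miR-431 and miR-432) had means of 6.90 to 7.06 in premolars against 6.65 to 6.89 elsewhere. This order rested on 1 bright probe, ssc-miR-127, at 11.47, 10.94 and 11.21 in the premolars of days 40, 50 and 60. The dimmer ssc-miR-432 and miR-432-5p-807 were both highest in the day-50 molar, at 7.49. In skeletal muscle miRNAs the contrast was wider: 9 of 12 probes were tested, and their mean was 8.11 to 8.21 in premolars, 6.68 to 6.87 in incisors, 6.46 to 7.60 in canines and 6.34 to 6.65 in molars. The probes of miR-133, a miRNA that regulates skeletal and cardiac muscle, were among those high in premolars. The muscle miRNAs miR-1 and miR-206 were also present: PN-1-3p-13186 was detected in 8 RNAs and ssc-miR-206 in 7. The level of PN-1-3p-13186 was 7.08, 6.75 and 7.83 in the premolars of days 40, 50 and 60, 7.23 in the day-50 canine and 7.17 and 7.31 in the molars of days 50 and 60, against 6.18 to 6.74 in the other 6 RNAs. That of ssc-miR-206 was 7.28, 6.61 and 7.90 in the premolars, 7.25 in the day-50 canine and 7.35 and 7.57 in the later molars, against 6.26 to 6.56 elsewhere. By contrast, ssc-miR-1 was detected in 1 RNA only, ssc-miR-499 and ssc-miR-208b in 3 RNAs each, and none of these exceeded a level of 6.41. The part of muscle tissue in the premolar levels of the cluster was not tested.

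The question of the design is how miRNAs differ between the 4 tooth types and the 3 days. In a fit of tooth type, day and dye in which RNAs of one array were allowed to correlate, PN-485-3p-375 was the only member to differ among the 4 tooth types (limma, adjusted p = 0.0379), where 0.915% of all tested probes passed, and 13 members had an unadjusted p below 0.05 (18.8% of all probes). In rat neurons miR-485 has been linked to the loss of dendritic spines, which is not a statement about the 3p arm read by this probe. The level of PN-485-3p-375 was 9.07, 9.22 and 8.40 in the premolars of days 40, 50 and 60. It was 7.93, 8.12 and 7.52 in the incisors, 7.63, 7.92 and 7.85 in the canines and 7.76, 7.44 and 6.93 in the molars. Every premolar lay above every other germ. The fitted difference between premolar and incisor was 0.92 ± 0.11 (SE; limma, adjusted p = 0.0162), and that between premolar and canine was 1.07 ± 0.14 (SE; limma, adjusted p = 0.0460). Against the molar the estimate was larger, 1.20 ± 0.18, but did not pass (limma, adjusted p = 0.0844). The probe of the other arm, PN-485-5p-400, was detected in 4 RNAs and did not show this order. Its level was 6.42, 6.30 and 6.38 in the premolars, with 6.60 in the day-50 incisor and 6.67 in the day-50 molar.

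The call for PN-485-3p-375 depended on the processing, whereas its direction did not. Over 30 alternative fits the premolar minus incisor difference stayed between 0.71 and 1.15 and passed in 12. The premolar minus canine difference stayed between 0.73 and 1.52 and passed in 4. Among the fits that did not pass were those that left out the day-40 premolar (adjusted p = 0.665 against the incisor) or the day-50 premolar (adjusted p = 0.223).

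The 5 probes whose levels followed PN-485-3p-375 most closely over the 12 RNAs were 4 probes of miR-133, with Pearson correlations of 0.87 to 0.89, and PN-376c-3p-2496 at 0.85. This is a description over RNAs that share arrays. The level of ssc-miR-133b was 10.74, 10.61 and 10.22 in the premolars of days 40, 50 and 60 and 9.14 in the day-50 canine, and 6.33 to 7.55 in the other 8 RNAs. In the canines of days 40, 50 and 60 the level was 6.84, 9.14 and 7.52 for ssc-miR-133b and 7.63, 7.92 and 7.85 for PN-485-3p-375. The day-50 canine was thus the highest canine for both probes, by a smaller margin for PN-485-3p-375. Of the 9 muscle probes, 4 passed in the premolar against incisor comparison (limma, smallest adjusted p = 0.0035). Several of these 9 probes carry the name miR-133, and probes of one miRNA are not independent measurements.

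The other member that passed was PN-299-5p-13746, a miRNA reported to act on osteopontin in human breast cancer cells. Its level in days 40, 50 and 60 was 7.40, 7.78 and 7.57 in the premolars and 6.95, 7.32 and 6.99 in the incisors, which did not overlap. In the canines it was 6.64, 7.43 and 7.24, and in the molars 6.71, 7.53 and 7.31, both overlapping the premolars. The premolar minus incisor difference was 0.49 ± 0.06 (SE; limma, adjusted p = 0.0179), and it passed in 8 of 30 alternative fits, with differences of 0.34 to 0.91. The offset probe ssc-miR-299 gave 7.56, 7.80 and 7.52 in the premolars against 6.97, 7.21 and 7.24 in the incisors. Its difference was 0.50 ± 0.08 (SE), short of the threshold (limma, adjusted p = 0.0554). The 2 probes read overlapping sequences and are not independent measurements.

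Premolar against incisor was the comparison with the most members called, 2 of 59 against 0.915% of all tested probes. At an unadjusted p below 0.05, 18 members were found against 10.4% of all probes, and 17 of them were higher in the premolar, against 6.1% of all probes. Of the 59 members, 44 had an estimate above 0, as did 48.2% of all probes, and the median estimate was 0.09 for the members and -0.0046 for all probes. All 3 premolars lay above all 3 incisors for 12 of 59 members, against 5.79% of all probes. They lay below for 1, PN-543-5p-14352, against 4.57% of all probes.

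Against the canine, 1 member was called (0.762% of all probes). At an unadjusted p below 0.05 there were 14 members (14.5% of all probes), 12 of them higher in the premolar (6.71%), and all 3 premolars lay above all 3 canines for 7 of 59 members (2.74% of all probes). Against the molar no member was called by limma (0.152% of all probes), 10 had an unadjusted p below 0.05 (19.7% of all probes), all higher in the premolar (10.1%), and 19 of 59 members did not overlap in that direction (14.3% of all probes). All 3 premolars exceeded the other 9 RNAs for 4 members, PN-376c-3p-2496, PN-381-3p-1991, PN-300-3p-13997 and PN-485-3p-375, and this held for 1.37% of all tested probes.

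The 3p probes of miR-381 and miR-300, which share a seed, were higher in all 3 premolars than in the other 9 germs. The level of PN-381-3p-1991 was 11.11, 11.76 and 11.59 in the premolars of days 40, 50 and 60. It was 9.69, 8.70 and 8.59 in the incisors, 9.76, 6.69 and 8.97 in the canines and 10.93, 6.96 and 6.93 in the molars. The premolars and the day-40 molar were above all other RNAs, a pattern met by these 2 members and by 0.762% of all probes. The mean of the muscle list was 8.11 to 8.21 in the 3 premolars and 6.34, its lowest, in the day-40 molar. The part of muscle tissue in the levels of these 2 members was not tested. PN-300-3p-13997 had almost the same profile, with r = 0.998 over the 12 RNAs, and probes this alike in sequence are not independent measurements. The probe of the other arm, PN-381-5p-15017, was detected in 10 RNAs and differed from this profile. Its level was 7.05, 8.12 and 7.43 in the premolars of days 40, 50 and 60. It was 6.89, 7.33 and 7.39 in the incisors, 6.58, 7.00 and 7.57 in the canines and 6.77, 6.58 and 6.36 in the molars. The premolars overlapped the incisors and canines.

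The spread within tooth types was wide for the pair of 3p probes, and its differences did not pass in the fit. For PN-381-3p-1991 the molars gave 8.27 ± 2.30 (SD, n = 3) and the premolars 11.49 ± 0.34 (SD, n = 3). The fitted difference was 1.89 ± 0.48 (SE) against the incisor (limma, adjusted p = 0.192) and 3.42 ± 0.60 (SE) against the canine (limma, adjusted p = 0.0751). For PN-300-3p-13997 these were 1.98 ± 0.47 (SE; limma, adjusted p = 0.183) and 3.28 ± 0.58 (SE; limma, adjusted p = 0.0751). Without the array of the day-60 canine and the day-50 premolar, the fitted premolar minus incisor difference turned to -0.31 for PN-381-3p-1991 and -0.028 for PN-300-3p-13997. That array is the only one on which a premolar carried the dye Cy3 and not Cy5.

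Ratios within an array compare its 2 RNAs directly, with 4 spots per probe and no test, since spots are repeats of one hybridisation. On the day-40 array of premolar and incisor, PN-381-3p-1991 was 2.67-fold higher in the premolar, and on the day-60 array it was 8.02-fold higher. The day-50 premolar exceeded the day-60 canine 6.95-fold, although both tooth type and day differ there. At day 50 the incisor exceeded the canine 4.02-fold, and the day-40 molar exceeded the day-40 canine 2.26-fold. For PN-300-3p-13997 the same 5 ratios were 2.69, 8.24, 6.44, 3.24 and 2.30-fold. Of these ratios, 3 moved by more than 1.5 times with the processing for each probe. For PN-381-3p-1991 they ran from 6.51 to 12.4-fold on the day-60 array, from 2.57 to 10.6-fold between the day-50 incisor and canine and from 2.26 to 4.80-fold between the day-40 molar and canine. For PN-300-3p-13997 they ran from 6.46 to 12.7, from 2.18 to 8.54 and from 2.295 to 4.87-fold. The pair was therefore high in the premolar on all 3 arrays that hold one.

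Probes of the miR-376 group were highest in the day-40 premolar, except PN-376c-5p-43489, which was highest in the day-60 molar (6.89, against 6.35 in the day-40 premolar). Members of this family are known for editing of their seeds in human and mouse brain. PN-376c-3p-2496 had a level of 9.29, 7.98 and 7.72 in the premolars of days 40, 50 and 60. It was 7.38, 7.65 and 7.04 in the incisors, 7.20, 7.66 and 7.34 in the canines and 6.81, 6.93 and 6.79 in the molars. Premolars were above and molars below all others, with no overlap. The premolar minus incisor difference was 1.06 ± 0.26 (SE) and did not pass (limma, adjusted p = 0.183).

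On the day-40 array PN-376c-3p-2496 was 3.76-fold higher in the premolar than in the incisor, with values of 3.18 to 7.55-fold over the alternatives. PN-376b-3p-13138 was 2.61-fold higher there (2.09-fold with no background correction and 19.8-fold in the authors' deposited values), with levels of 8.03 in the premolar and 6.65 in the incisor, and between 6.20 and 6.59 in the remaining 10 RNAs. The level of ssc-miR-376a was 7.49 in the day-40 premolar and 6.08 to 6.53 elsewhere, and that of PN-376d-3p-9586 was 7.04 against 6.24 to 6.49. These 3 probes, which differ by 1 or 2 bases and correlate at 0.96 to 0.97 over the 12 RNAs, were detected in 5 RNAs each and stood out in 1 RNA. The star-strand probe ssc-miR-376a* was also highest in the day-40 premolar, at 7.37 against 6.12 to 6.81 in the others.

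PN-411-5p-771 separated molars from the rest. Its level was 6.98, 6.56 and 6.41 in the molars of days 40, 50 and 60. It was 8.58, 9.26 and 7.88 in the incisors, 8.55, 8.13 and 8.18 in the canines and 10.28, 8.87 and 8.06 in the premolars. All molars lay below all other germs, which was so for 8 of 59 members and 7.16% of all tested probes. The probe was not detected in the molars of days 50 and 60, which shared an array that stood apart for all probes. The premolar minus molar difference of 2.86 ± 0.57 (SE) did not pass (limma, adjusted p = 0.134). On single arrays the day-40 premolar exceeded the day-40 incisor 3.25-fold, the day-40 canine exceeded the day-40 molar 2.97-fold, and at day 50 the incisor exceeded the canine 2.19-fold. With median centring the last 2 of these ratios were 1.73 and 1.19-fold, and in the authors' deposited values they were 4.79 and 2.81-fold. The probe of the other arm, PN-411-3p-3887, was detected in 8 RNAs and did not separate the molars. Its level was highest in the day-50 molar, at 7.34, and lowest in the day-40 molar, at 6.37.

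Some bright members followed neither tooth type nor day. PN-377-3p-18696, a miRNA studied in human kidney mesangial cells, had a level of 9.90, 7.99 and 11.17 in the premolars of days 40, 50 and 60. It was 8.22, 11.48 and 7.33 in the incisors, 8.08, 7.32 and 9.59 in the canines and 8.07, 5.87 and 7.16 in the molars. The highest RNA was that of day 50 in incisors, of day 60 in canines and premolars and of day 40 in molars, and the day-50 molar value was not above background. The premolar was 3.20-fold above the incisor on the day-40 array and 14.3-fold above it on the day-60 array, but 3.03-fold below the canine on the array of the day-50 premolar. The incisor of day 50 exceeded the canine 17.9-fold, with single spots between log2 ratios of 3.01 and 6.86. Over the alternatives this ratio was as low as 9.64-fold, and that of the day-60 premolar and incisor ran from 8.20 to 25.6-fold. In each ratio given here the higher RNA carried the dye Cy5 and the lower Cy3, so dye and RNA cannot be told apart. The day-40 molar, in Cy5, and the day-40 canine, in Cy3, were level at 8.07 and 8.08. The day-50 molar, taken as Cy5, lay below the day-60 molar. The probe of the other arm, PN-377-5p-6676, was detected in 7 RNAs. Its level ran from 6.30 in the day-50 canine to 7.04 in the day-40 molar.

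PN-494-3p-3917 varied more with single RNAs than with tooth type. It gave 11.23, 9.61 and 8.16 in the incisors of days 40, 50 and 60. It gave 11.27, 9.17 and 8.87 in the canines, 11.50, 7.85 and 8.32 in the premolars and 8.48, 10.65 and 10.95 in the molars. The day-40 RNA was the highest of its type in incisor, canine and premolar and the lowest in molar. The day-40 canine exceeded the day-40 molar 6.92-fold within their array, with 3.27-fold under median centring and 8.53-fold in the authors' deposited values. No difference between days passed (limma, adjusted p = 0.851 across the 3 days). The probe of the other arm, PN-494-5p-15099, was detected in 4 RNAs and stayed between 6.22 and 6.48.

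The 2 arrays of premolar against incisor showed the same direction for many members. At day 40, 36 of 59 members were higher in the premolar in all 4 spots, against 22.6% of all tested probes, and at day 60 this held for 27 of 59, against 25.8%. On both arrays 24 members were higher in the premolar (12% of all probes), and none was lower on both (8.54% of all probes). PN-539-3p-9544 had opposite signs on the 2 arrays, as did 7.47% of all probes. Ratios of 2-fold or more in all 4 spots were counted among probes detected in either RNA of the array. They favoured the premolar for 7 of 58 members at day 40 (2.78% of 647 probes) and for 3 of 41 at day 60 (5.27% of 474 probes). They favoured the incisor for none, against 0.618% and 0.422% of these probes.

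Further members among these 24 differed by less. PN-487b-3p-443 was higher in the premolar by 0.42 and 0.30 on the log2 scale at days 40 and 60. PN-758-3p-29208 was higher by 1.12 and 0.41. The probe ssc-miR-758, which shares 21 bases with it, had a level of 8.23, 7.51 and 7.32 in the premolars of days 40, 50 and 60. It was 7.17, 7.80 and 6.997 in the incisors, 6.92, 7.28 and 7.11 in the canines and 6.89, 6.48 and 6.46 in the molars. The premolars lay above the canines and molars but overlapped the incisors. The median log2 ratio of all members was 0.15 at day 40 and 0.12 at day 60, and that of all tested probes was -0.01 and 0.01.

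On both of these arrays the premolar RNA carried Cy5 and the incisor RNA carried Cy3, so dye and tooth type cannot be told apart on them. On the third array with a premolar the dyes were reversed. There the day-50 premolar, in Cy3, was higher than the day-60 canine in all 4 spots for 18 of 59 members, against 20.1% of all probes. Of the 24 members high in both premolars above, 15 were also higher in this premolar, among them PN-485-3p-375 (2.59-fold, and 3.91-fold in the authors' deposited values), PN-299-5p-13746 and PN-376c-3p-2496. Of all tested probes, 29 of 656 probes (4.42%) met all 3 conditions. PN-377-3p-18696, PN-376b-3p-13138 and PN-494-3p-3917 went the other way on the third array.

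No member passed in the comparisons of molar with incisor, of molar with canine or of canine with incisor (limma), where 0.305%, 0.457% and 0% of all probes were called. At an unadjusted p below 0.05 there were 3, 3 and 8 members, against 22.1%, 20.4% and 13.4% of all probes. The later molars, of days 50 and 60, were hybridised together on an array that stood apart for all probes: 20.7% of the 656 lay above and 20.9% below all other RNAs in this pair. Among members, 9 of 59 were above and 11 below, which is no more than this background. Those above included PN-379-5p-1421, at 8.65 and 7.65 against 6.39 to 6.91 elsewhere, and PN-382-5p-139, at 8.35 and 7.80 against 6.23 to 7.002. PN-409-3p-335 was 2.04-fold higher in the RNA taken as the day-50 molar than in that taken as the day-60 molar. The file's heading and the labels disagree on which RNA is which on this array, and with the RNAs exchanged this ratio runs the other way. Its longer version PN-409-3p-5527 had 8.51 and 7.52 there against 6.69 to 7.24 elsewhere.

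No member differed between days in the fit (limma; 0% of all probes called), while 16 of 59 had an unadjusted p below 0.05, against 15.5% of all probes. Day 60 against day 50 gave 19 members at an unadjusted p below 0.05 (14.2% of all probes), of which 16 were lower at day 60 (9.3%), and none passed after adjustment (0% of all probes, smallest adjusted p for a member 0.185). Day 50 and day 60 against day 40 gave 6 and 2 members at an unadjusted p below 0.05, against 10.4% and 10.1% of all probes, and none after adjustment (limma), where 0.457% and 0.762% of all probes passed. The smallest p over the 3 days was that of PN-329a-3p-1371 (limma, adjusted p = 0.215). Its level at day 40 was 6.51 to 6.73, below the 6.86 to 7.19 of day 50 and the 6.75 to 7.16 of day 60, with no overlap. The estimate for day 50 over day 40 was 0.48 ± 0.10 (SE).

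The other members with small p-values for day were PN-379-3p-17668, PN-323b-3p-1142, PN-299-5p-13746, PN-376c-5p-43489 and ssc-miR-323, all at the same adjusted p of 0.215. Day 60 was below day 50 by estimates of -0.49 for PN-379-3p-17668, -0.19 for PN-323b-3p-1142 and -0.38 for ssc-miR-323, and above it by 0.26 for PN-376c-5p-43489. These 4 directions depend on which of the later molar RNAs is which: with the RNAs exchanged the estimates were 0.46, 0.035, 0.25 and -0.25.

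Probes of the DLK1-DIO3 domain outside the cluster were set beside the cluster. None of 10 passed for premolar against incisor, canine or molar (limma). The premolar estimate was above 0 for 9 of 10 against the incisor, 5 against the canine and 6 against the molar. The medians were 0.08, 0.03 and 0.08. Of all tested probes, 48.2%, 45.0% and 48.3% had estimates above 0. Some of the 10 probes read the same miRNA, such as ssc-miR-432 and miR-432-5p-807, and are not independent measurements. The 10 probes include ssc-miR-127, which in the mouse represses the retrotransposon-like gene Rtl1. Its level was 11.47, 10.94 and 11.21 in the premolars of days 40, 50 and 60. It was 9.88, 9.77 and 9.59 in the incisors, 10.04, 9.503 and 9.66 in the canines and 11.10, 9.13 and 8.51 in the molars. As for miR-381 and miR-300, the premolars and the day-40 molar were the 4 highest RNAs. Its premolar minus incisor difference was 1.30 ± 0.21 (SE), short of the threshold (limma, adjusted p = 0.0554).

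Among the other marker lists, 11 neural probes, relevant because the cluster is active in neurons, had means of 6.55 to 6.76 in premolars, 6.68 to 6.83 in incisors, 6.63 to 6.71 in canines and 6.58 to 6.87 in molars. None passed between premolar and incisor (limma), and 4 of 11 estimates were above 0. The mesenchymal list lay at 9.19 to 9.71 in premolars and at 9.07 to 9.76 in incisors, which overlap. The blood list gave 6.75 to 6.99 in premolars and 6.71 to 7.33 in incisors, and the endothelial list, with 2 probes, gave 7.45 to 8.74 and 7.60 to 8.28.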

How the data were processed

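Pairs of tooth germ RNAs were hybridised on 6 two-colour arrays. The deposited spot files hold linear intensities with no background removed, per the file headers, and log2 values processed by the authors were deposited as well and used as an alternative. The software behind both is not given in the sources used here. Commas inside numbers were removed. A surface was fitted through 716 blank spots per array and channel (robust loess, span 0.3, degree 1), with normexp (offset 50), loess within arrays and Aquantile between arrays, and the 4 spots per probe were averaged. A probe was detected where its mean exceeded the surface by 3 SD of the blanks, and the tests took in the 656 probes that at least 3 RNAs detected. limma 3.58.1 fitted tooth type, day and dye with array as a random block (correlation 0.83), with Benjamini-Hochberg adjustment over 656 probes and a threshold of 0.05, two-sided, with 5 residual degrees of freedom. The fit was tested on simulated data. The labels give 1 RNA per condition and do not say whether embryos were pooled. A p-value therefore rests on how far single RNAs depart from the additive fit. It does not measure the spread of animals or of repeats within a condition. On the later-molar array, headings and labels disagree on the order of the RNAs, and the headings were used. The title of the array that pairs incisor with canine gives the incisor another day than its other labels, which were followed.

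Members were taken by miRNA number from the probe names. Members, marker lists and naming rules were chosen with earlier results of these data known. Named probes are those past the threshold, the 6 smallest p-values for tooth type and for day, those with a 2-fold ratio in all 4 spots of an array, the 8 with the highest mean level, and the 5 probes most correlated with the member of smallest tooth-type p. Other probes of the same miRNAs are given for some of them, not for all.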

Additional observations from a re-analysis of the deposited data

Results flagged for a closer look

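PN-539-3p-9544, which has the seed of PN-485-3p-375, was the only tested member with opposite signs on the 2 arrays of premolar and incisor: in all 4 spots it was lower in the premolar at day 40 (log2 ratio -0.036) and higher at day 60 (0.59). Of all tested probes, 7.47% had opposite signs in all spots. The difference between the days was not tested, and at day 40 the spots reached -0.0002, so that this ratio is close to 0.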

How the results depend on the processing

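The number of members called depended on the processing, with 2, 1 and 1 for premolar against incisor, premolar against canine and all tooth types in the values reported. These numbers became 0, 0 and 0 with median centring, with no array block and with dye by density column, and 1, 0 and 0 with no scaling between arrays. With the later molar RNAs exchanged they were 5, 0 and 0. For premolar against canine and all tooth types they were 0 and 2 with quantile normalisation, 0 and 0 with no background correction or with one background value per channel, and 3 and 4 among probes detected in all 12 RNAs. They were 3 and 2 with a quadratic background surface, an alternative chosen after seeing the data. With no filter, or with the median of the spots, premolar against canine had 0. Among probes detected in all 12 RNAs, 1 member was called for premolar against molar and 1 for canine against incisor. With no array block, 1 each was called for premolar against molar, day 50 against day 40, day 60 against day 40 and all days. Shares of all probes called in these alternative fits are not given. The numbers therefore describe only the dependence on processing and are not a result about the members.

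Leaving out 1 RNA or 1 array gave the following numbers of members, each with the share of all 656 probes called in the fit of its highest value: 0 to 3 for premolar against incisor (1.07%, without the day-60 premolar), 0 to 1 against canine (2.44%, without the day-40 canine), 0 to 8 against molar (22.1%, without the array of the day-40 molar and canine), and, all without the day-40 molar, 0 to 4 for all tooth types (16.8%), 0 to 4 for molar against incisor (22.3%), 0 to 2 for molar against canine (19.2%) and 0 to 1 for day 60 against day 40 (3.96%). They were 0 to 2 for day 50 against day 40 (2.29%, without the array of day-40 incisor and premolar) and 0 to 1 for all days (0.915%, without the later molar array). The 8 members are a smaller share of the 59 than all probes called in that fit. Without the array of the day-60 canine and day-50 premolar, the premolar minus incisor estimates of PN-381-3p-1991 and PN-300-3p-13997 turned to -0.31 and -0.028, over ranges up to 3.51 for both without the day-40 premolar. With the later molar RNAs exchanged, day 60 minus day 50 turned to 0.46 for PN-379-3p-17668, 0.035 for PN-323b-3p-1142, -0.25 for PN-376c-5p-43489 and 0.25 for ssc-miR-323, which ran from -0.60 to 0.012 on leaving out RNAs or arrays and turned without the later molar array. The cause was not tested.

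Direct 2-fold ratios of members numbered 11 and 5 at 1.5-fold for the day-40 and day-60 premolar and incisor arrays. On the later molar array they numbered 4 with median centring, 0 with no background correction, 5 at 1.5-fold, 2 on the mean of the spots and 5 in the authors' processed values. In those values they numbered 24 (all higher in the premolar) and 16 (likewise) for premolar and incisor at days 40 and 60, where 10.2% and 9.92% of the probes detected in either RNA of the array were higher and 6.65% and 3.16% lower. They numbered 11 for the canine and premolar array and 11 for the molar and canine array, where 20.2% and 19.1% of probes were past 2-fold in either direction, against 7.99% on the later molar array. The counts under the other settings are given without the share of all probes. They therefore describe only the dependence on processing and are not a result about the members. Without scaling between arrays, the median of all probes shifted to -0.22 for premolar against molar, where the members' median was -0.14. Dim members limit what can be seen: 28 of 61 were detected in 3 to 6 RNAs.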
